A study of Mus musculus with 8 samples.

Results

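A group of 7 keratin genes was followed by name through 8 single-cell RNA libraries of mouse tongue epithelium: the basal keratins Krt5, Krt14 and Krt15 and the stress keratins Krt6a, Krt6b, Krt16 and Krt17. They are 7 of the 32285 genes counted, they were chosen by symbol and not by their values, and all 7 were detected in every library. Their levels were read in epithelial cells, defined as cells with at least 1 unique molecular identifier (UMI, 1 tagged RNA molecule) of Epcam and none of the leukocyte gene Ptprc. This gate held 10343 of the 25199 cells that passed the quality limits, out of 42550 deposited. Each of the 4 genotypes had 2 libraries of sorted, viable cells, from different mice, taken 15 days after transgene induction, and the label of the second N library joins the numbers of 2 animals. All mice carried Krt14-CreERT and LSL-rtTA, so the control group N had the driver without an oncogene. Group E added tetON_E6-E7 (the papillomavirus oncogenes that inactivate p53 and the retinoblastoma protein), Y added tetON_YAP1S127A (a YAP that Hippo kinases cannot restrain at that site), and EY carried both. The methods also give every mouse a tetON_H2B-GFP reporter, tamoxifen injected into the tongue and doxycycline in the diet. The Krt14 promoter drives the recombinase, so Krt14, one of the 7 genes, also marks the cells in which the transgenes could be switched on, and the gate did not select recombined cells.

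Keratins form the intermediate filaments of epithelial cells, always as a pair of 1 type I and 1 type II protein. Krt5 (type II) pairs with Krt14 (type I) in the basal layer of stratified epithelia, and Krt15 is a further type I keratin of basal cells, widely used as a marker of quiescent progenitors. Krt6a, Krt6b (type II), Krt16 and Krt17 (type I) are known as stress or wound keratins, since they are induced in keratinocytes at wound edges and in hyperproliferative disease. In the tongue some of them are also made without injury, in the filiform papillae.

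Gated cells numbered 2445 and 384 in N, 3124 and 463 in E, 1071 and 828 in Y, and 132 and 1896 in EY. The first EY library therefore rests on the fewest cells, and its gated cells were 7.26% of those within the limits, against 19.8% to 63.0% in the other 7. Without the ceilings on genes and UMIs in a cell, the gate held 2508 and 690 cells in N and 3251 and 810 in E. In that setting it held 1654 and 1417 cells in Y, and 440 and 2325 in EY. The ceilings thus removed unlike shares of cells, also between libraries of the same group. Summed gated UMIs ran from 2214797 in the first EY library to 43953687 in the first E library, and the median per cell from 13016.5 to 23960. Transcripts of Yap1, which would include those of the transgene where they share sequence, fitted the labels. They were at 31.3 to 47.7 CPM (counts per 1000000 gated UMIs) in the 4 N and E libraries and 180 to 458 CPM in the 4 Y and EY libraries. These Yap1 values were scaled like the keratin levels below, and the marker sums that follow were not. E6 and E7 are not mouse genes and were not looked for. All 6 epithelial markers were detected in every library's gated cells. Gland and duct markers, 5 genes led by Wfdc18, summed to 10807 CPM in the first EY library and 5606 CPM in the second N library against 2.06 to 1225 CPM in the other 6. Myeloid markers, 4 genes, summed to 2066 and 681 CPM in EY and to 34.2 to 160 CPM in the other groups. S100a8 and S100a9, on that list, are also read below as wound-edge genes. Pan-immune markers summed to 210 and 39.2 CPM in EY and to 17.2 to 82.8 CPM in the other groups. Langerhans or dendritic markers summed to 2465 and 356 CPM in EY and to 674 to 905 CPM elsewhere. The part of gland and immune transcripts in the keratin values was not tested, other than by the narrower gates given below. No pair of libraries shared more than 0.393% of the barcodes of the smaller one.

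The 7 genes sit in both mouse keratin clusters (GRCm38, the mm10 build of the files, all on the minus strand). The type I genes are on chromosome 11: Krt15 at chr11:100131758-100135928, Krt14 at chr11:100203162-100207548, Krt16 at chr11:100246091-100248902 and Krt17 at chr11:100256217-100261029. The type II genes are on chromosome 15: Krt6b at chr15:101676023-101680287, Krt6a at chr15:101689910-101694307 and Krt5 at chr15:101707070-101712898. Genes are annotated on the opposite strand across Krt5, Krt6a and Krt6b. Krt6a and Krt6b are close copies, with 97.6% identical coding bases, and reads could be divided wrongly between them. Their last 90 coding bases are printed because they show how near the copies are. They come from the GRCm38 reference at chr15:101690467-101690556 and chr15:101676529-101676618 (minus strand, in the last exon up to the stop codon). Capitals mark bases that differ from the other copy or have no counterpart in it. The alignment has 9 such positions, counting gaps in either copy.
Krt6a: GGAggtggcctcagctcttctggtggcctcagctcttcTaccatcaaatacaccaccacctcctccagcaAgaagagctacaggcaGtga
Krt6b: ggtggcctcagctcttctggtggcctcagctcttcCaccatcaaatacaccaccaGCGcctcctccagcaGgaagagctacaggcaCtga
Further towards the end, where 3′ libraries take most reads, the copies part: the last 500 transcript bases were 68.3% identical, and none of the 411 windows of 90 bases there was shared. Across the whole transcripts 695 such windows were shared, so the Krt6b values are given as uncertain. Krt16 and Krt17 differ more, with 70.6% identical coding bases. Krt14 and Krt16, at 82.9%, shared no 90-base window in their last 500 bases, but 66 across the whole transcripts. Krt5 shared 70 such windows with Krt6a and 5 with Krt6b across the whole transcripts, and none in the last 500 bases. Reads from shared windows could be divided wrongly in these pairs too, which was not tested.

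Krt17 rose in EY. Its level in the summed gated cells, in CPM scaled by the trimmed mean of M values (TMM), was 1356 and 1258 in N, 1731 and 1098 in E, 1904 and 2552 in Y, and 5250 and 9195 in EY. Both EY libraries lay above all 6 others, and both Y libraries lay above both N libraries and both E libraries. The fold change of EY against N was 2.47 on the log2 scale (SE 0.34), with an adjusted p of 0.0255 by edgeR's quasi-likelihood test over 13723 genes. Krt17 was the only 1 of the 7 members called by edgeR in this comparison, in which 5.13% of all genes tested were called and 2.46% were called as higher. DESeq2 and limma also called it, among 14.7% and 13.8% of all genes. The call rests on few libraries. It was lost without the first N, the second N, the first E, the second E or the second EY library. Those fits leave 1 library in a group and called almost none of all genes, so the loss is not particular to Krt17. The fold change ran from 1.99 to 2.82 over the 8 fits that each lacked 1 library. Krt17 kept its call in the gate that allowed at most 2 UMIs of 4 gland genes and in the gate with no UMI of 7 immune genes. In bulk sums like these, a larger share of cells with Krt17 and more Krt17 RNA per cell cannot be told apart, and the cell shares below do not fully separate them.

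**Figure D1:**
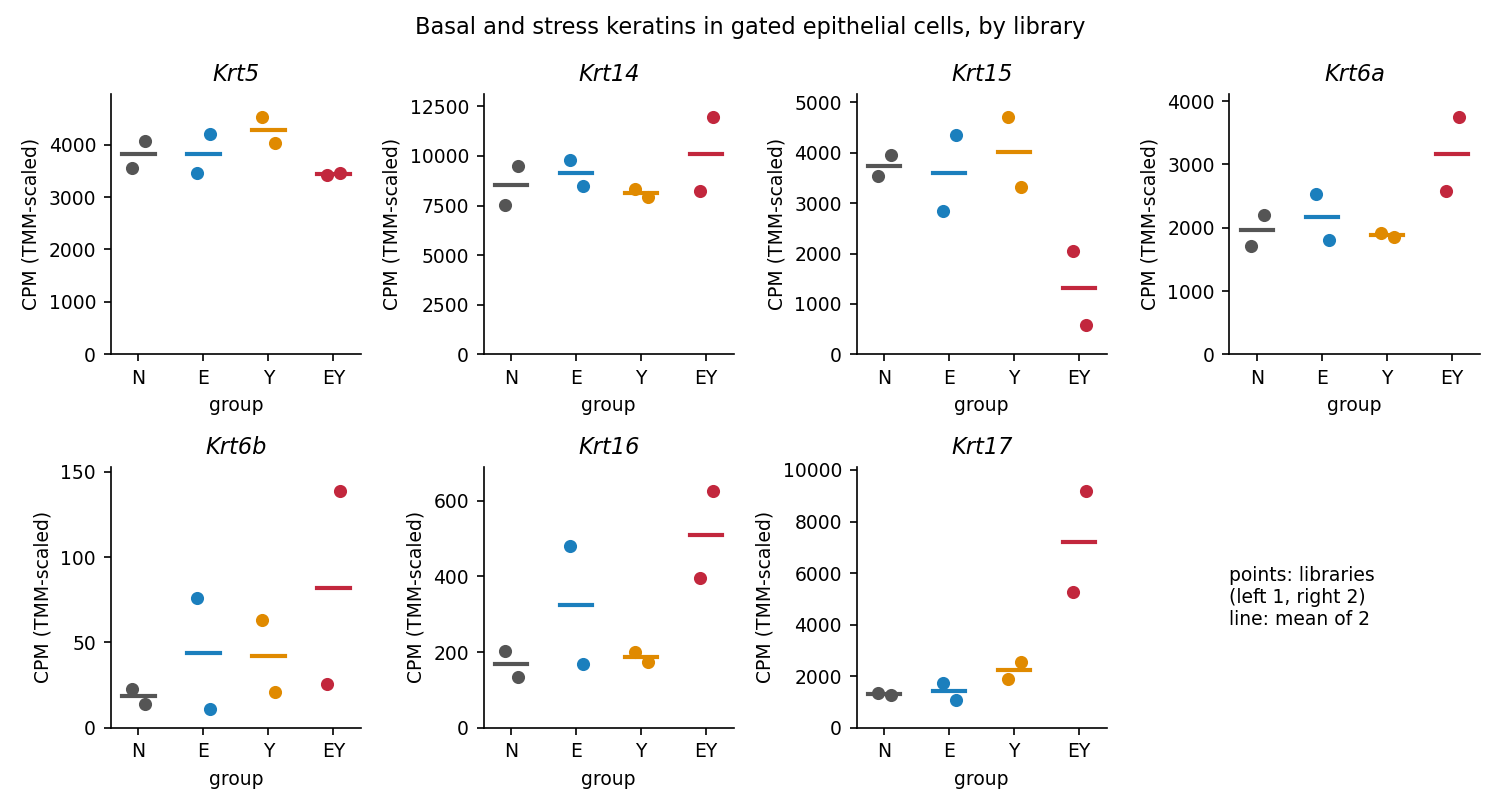
Level of each of the 7 keratins in gated epithelial cells (vertical axes, TMM-scaled CPM from 0) by group (horizontal axes), with 1 point per library and a line at the mean of 2 libraries. Krt17 was at 5250 and 9195 CPM in EY against 1098 to 2552 CPM elsewhere, and Krt15 at 2057 and 578 CPM in EY against 2855 to 4707 CPM elsewhere.

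Krt15 was at its lowest in EY. Its level was 3533 and 3956 CPM in N, 2855 and 4357 in E, 4707 and 3327 in Y, and 2057 and 578 in EY. Both EY libraries lay below all 6 others, but they differed 3.56-fold from each other, and the difference of −1.51 on the log2 scale against N (SE 0.54) did not pass the test (edgeR adjusted p = 0.123). It passed with DESeq2 (−1.47, adjusted p = 0.0177), which called 14.7% of all genes in this comparison. Without the first EY library the difference was −2.69 (adjusted p = 0.0147), in a fit that called 21.6% of all genes. Without the second EY library it was −0.87 (adjusted p = 0.258). The difference from N was −0.05 in E and 0.10 in Y (SE 0.53 in both). Without the ceilings on genes and UMIs in a cell, the value in Y was −0.45 (edgeR adjusted p = 0.563). The levels there, not TMM-scaled, were 2554 and 1925 CPM in Y, below the 3525 and 2782 CPM of N.

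Among the other stress keratins, Krt6a, the type II partner of Krt16 and Krt17, was at 1716 and 2203 CPM in N, 2534 and 1800 in E, 1916 and 1852 in Y, and 2579 and 3747 in EY. Both EY libraries lay above all others, by a narrow margin for the first, and the log2 difference against N of 0.69 (SE 0.25) had an edgeR adjusted p of 0.121. Without the second EY library the Krt6a difference was 0.39, and without the first it was 0.94 (adjusted p = 0.0464). Krt16 was at 203 and 135 CPM in N, 480 and 168 in E, 200 and 175 in Y, and 395 and 626 in EY. The first E library overlapped the EY range, and the log2 difference of EY against N of 1.60 (SE 0.49) had an edgeR adjusted p of 0.0904. DESeq2 gave 1.63 with an adjusted p of 0.00381. Krt6b was low throughout, at 22.7 and 13.99 CPM in N, 76.2 and 11.1 in E, 62.9 and 20.98 in Y, and 25.4 and 139 in EY. Libraries of the same group differed up to 6.89-fold in Krt6b, and its log2 difference of EY against N of 2.19 (SE 1.07) had an edgeR adjusted p of 0.212. It was 0.44 without the second EY library.

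The keratins that define the basal layer varied least. Krt5 was at 3562 and 4074 CPM in N, 3460 and 4199 in E, 4522 and 4029 in Y, and 3416 and 3458 in EY. The EY values were the lowest of the 8, but the log2 difference against N was −0.15 (SE 0.15, edgeR adjusted p = 0.524). Krt14, the partner of Krt5 and the source of the driver's promoter, was at 7530 and 9491 CPM in N, 9789 and 8491 in E, 8311 and 7917 in Y, and 8242 and 11951 in EY. The groups overlapped, and the log2 difference of EY against N was 0.25 (SE 0.21, edgeR adjusted p = 0.449).

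Across all 7 genes, the EY and N libraries did not overlap for 6, Krt14 being the exception. Over all genes tested, 56.6% did not overlap in the same comparison. Both EY libraries lay outside the range of the 6 others for 4 members (Krt17 and Krt6a above, Krt15 and Krt5 below), against 27.8% of all genes. The members' median log2 difference of EY against N was 0.69, against −0.05 over all genes tested.

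**Figure D2:**
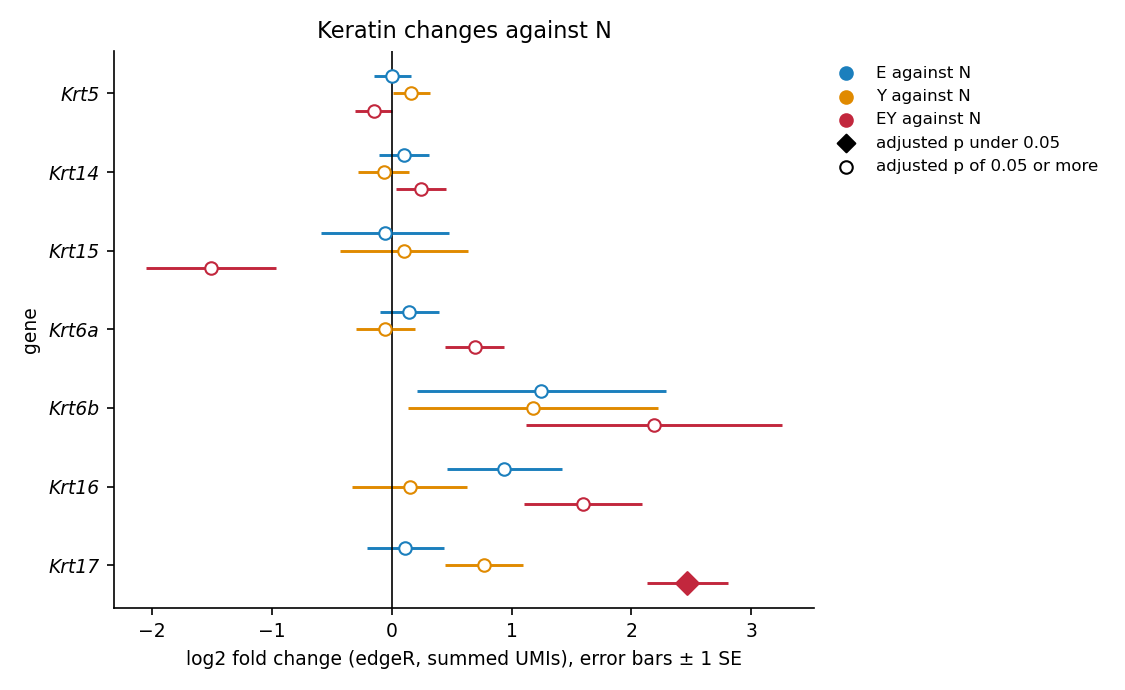
Log2 fold changes of the 7 keratins against N in E, Y and EY (horizontal axis, edgeR on summed UMIs, bars ± 1 SE), with a filled diamond for an adjusted p under 0.05 and an open circle otherwise. Krt17 in EY, at 2.47, is the only diamond, and Krt15 in EY, at −1.51, is the only value below −0.5.

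Neither transgene alone gave a call among the 7 genes within the quality limits. In E against N, 0.0364% of all genes tested were called, and 0 members were called, both by edgeR (0 at an unadjusted p under 0.05). DESeq2, which called 0.649% of all genes, and limma, which called 0.0729%, also called 0 members. The largest differences there were those of Krt6b, 1.25 (SE 1.04), and Krt16, 0.94 (SE 0.48), both with 1 E library high and 1 within or below the N range. Without the first E library they were −0.74 and −0.0079. In Y against N, edgeR called 0% of all genes and 0 members, while DESeq2 called 2.03% of all genes and limma 0.0146%, and neither called a member. The 1 member at an unadjusted p under 0.05 was Krt17, with a log2 difference of 0.77 (SE 0.32, adjusted p = 0.566). The Krt17 value in Y depended on the ceilings set on genes and UMIs in a cell. Without them the gate held 1654 and 1417 cells in Y, and the log2 difference was 1.48 (edgeR adjusted p = 0.0236). Krt17 was then at 4287 and 4117 CPM in Y against 1338 and 1741 CPM in N, values that are not TMM-scaled. Calls were frequent over all genes in that setting, at 8.83% in Y against N, 37.8% in EY against N and 40.3% in the YAP1S127A effect.

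The same libraries can be set against each other by transgene, 4 with and 4 without. For YAP1S127A, edgeR called 3.4% of all genes and 0 of the 7 members, 1 at an unadjusted p under 0.05. That member was again Krt17, with a log2 effect of 1.56 (SE 0.37) and an adjusted p of 0.0609, just outside the threshold. DESeq2 and limma each called Krt17 there, with log2 effects of 1.58 (adjusted p = 0.000384) and 1.46 (0.0441), where they called 14.8% and 4.57% of all genes. For E6-E7, edgeR called 0.102% of all genes and 0 members, 2 at an unadjusted p under 0.05. Limma called 0.197% of all genes and 0 members, while DESeq2 called 1.3% and, among the members, Krt16. The log2 effect on Krt16 was 1.19 (SE 0.33, edgeR adjusted p = 0.479) and that on Krt17 was 0.91 (SE 0.36, edgeR adjusted p = 0.622). For the interaction, the part of EY beyond the sum of both single effects, edgeR and limma each called 0% of all genes and 0 members (1 at an unadjusted p under 0.05 by edgeR), and DESeq2 called 0.255% and 0 members. The interaction was 1.58 for Krt17 (SE 0.46, adjusted p = 0.641) and −1.56 for Krt15 (SE 0.76, adjusted p = 0.674). A difference in EY beyond the sum was therefore not shown for any of the 7 genes with 2 libraries a group.

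As a composition, the 7 keratins held 1.82% to 2.22% of the gated UMIs in 7 libraries and 2.76% in the second EY library. UMIs count molecules at the 3′ end and are not divided by length, so the shares are compared between libraries and not between genes. The 4 stress keratins made up 18.4% and 17.1% of the 7 genes' UMIs in N, 23.0% and 15.3% in E, 18.9% and 23.1% in Y, and 37.6% and 46.2% in EY. Both EY libraries stood above the range of the 6 others. Krt17 alone was 5.46% to 12.8% in the N, E and Y libraries and 23.9% and 31.0% in EY, and Krt15 was 13.6% to 21.8% against 9.37% and 1.95%. The ratio of Krt17 to Krt15 UMIs was 0.252 to 0.767 in the 6 libraries of N, E and Y, 2.55 in the first EY library and 15.9 in the second. The ratio of type I to type II UMIs was 2.33 to 2.45 in the first 6, and 2.65 and 3.04 in EY.

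**Figure D3:**
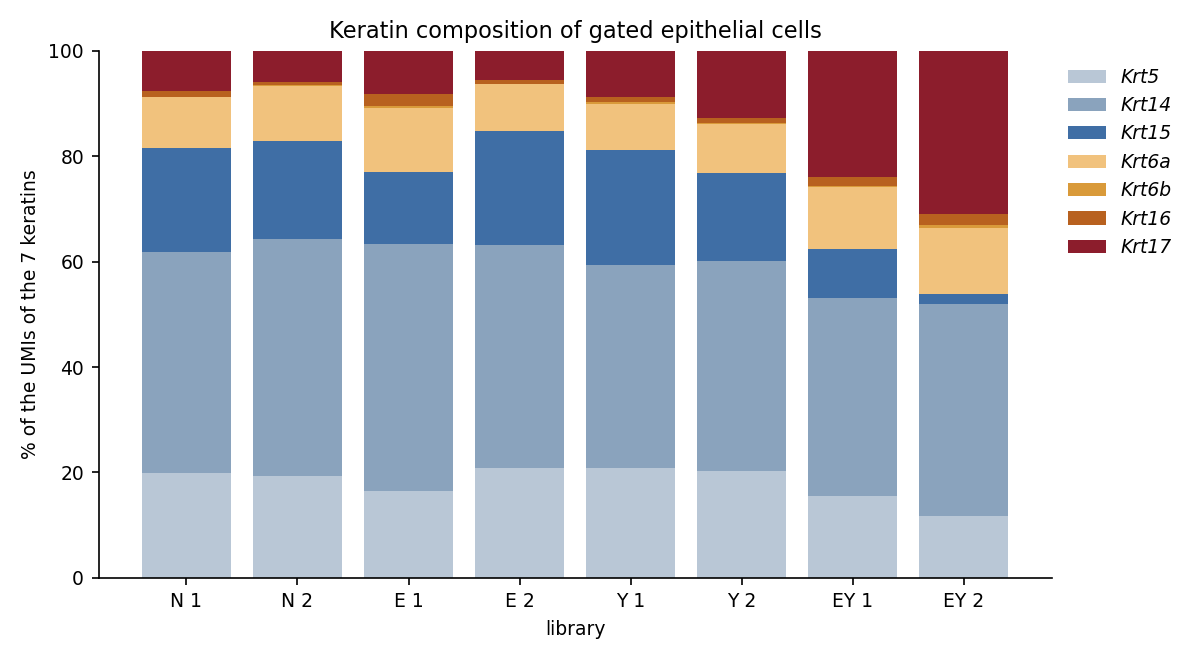
Share of each keratin among the UMIs of the 7 (vertical axis, %) in the 8 libraries (horizontal axis). Krt17 took 23.9% and 31.0% in EY against at most 12.8% in the other libraries, while Krt15 took 9.37% and 1.95% against at least 13.6%.

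To compare cells at equal depth, each cell was thinned to 2000 UMIs, and a gene was called present in a cell with at least 2 of them. More RNA per cell also lifts more cells over that cut, so the shares do not fully separate the number of cells from the level per cell. Shallower cells were left out (1 in the first N library and 1 in the first EY library). Krt17 was present in 35.4% and 32.6% of N cells, 39.9% and 32.8% of E cells, 40.1% and 52.8% of Y cells, and 72.5% and 96.9% of EY cells. The exact 95% interval for the 131 cells of the first EY library was 64.0% to 80.0%, so even the smaller EY share lay above every other library's interval. The intervals cover counting error only. The median cell had 7 and 15 Krt17 UMIs of 2000 in EY and 0 to 2 in the other libraries. Krt15 was present in 77.5% and 70.3% of N cells, 68.4% and 80.1% of E cells, 79.1% and 68.4% of Y cells, and in 38.9% and 18.9% of EY cells.

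Krt6a was present in 51.5% and 64.3% of N cells, 60.1% and 56.6% of E cells, 53.9% and 56.2% of Y cells, and 67.9% and 87.5% of EY cells. Krt16 was found in 4.23% to 10.1% of the cells in the 6 N, E and Y libraries and in 12.2% and 18.1% in EY. Krt6b never exceeded 3.64%. Krt5 and Krt14, the basal pair, were present in 82.4% to 94.0% and 86.5% to 98.6% of gated cells.

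Free RNA in the droplets or doublets could give keratin UMIs to cells that do not make keratins, and their source was not tested. Such UMIs were counted in the immune cells of the same libraries (at least 1 Ptprc UMI, no Epcam UMI). Their median depth was 3203 to 10645.5 UMIs before thinning, shallower than the gated cells. At the same 2000 UMIs, Krt17 was present in 0.360% to 4.14% of immune cells in 7 libraries and in 42.5% in the second EY library. Krt14 reached 43.6% in that library, against 3.24% to 18.7% in the others. Krt15 was present in at most 5.78%, and in 0.855% in the second EY library. In CPM, Krt17 in the immune cells of the second EY library was at 816, which was 9.55% of its gated level of 8540 CPM before scaling, the highest of the 8 values. The first N and first E libraries were at 9.36% and 9.16%, and the other 5 at 2.02% to 7.26%. The 96.9% share of that library is to be read beside its own 42.5%.

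At the equal depth and cut used above, Krt17 and Krt6a were found in many of the cells with Krt15, and Krt16 in few of them. Of the cells with Krt15, 35.3% and 33.0% also had Krt17 in N, 38.1% and 29.9% in E, 35.9% and 43.5% in Y, and 62.7% and 94.4% in EY. The share for the first EY library rests on 32 of 51 cells (exact 95% interval 48.1% to 75.9%) and that for the second on 338 of 358 (91.5% to 96.6%). Both EY shares exceeded the 6 others, and the second stands beside the 42.5% of immune cells with Krt17 in that library. With 4 libraries on each side, the YAP1S127A libraries averaged 59.1% ± 26.1 (SD, n = 4) and the others 34.1% ± 3.46 (SD, n = 4), and a two-sided exact permutation test over the 70 labellings gave p = 0.0571 (0.343 after adjustment over the 6 tests of this kind). The E6-E7 libraries averaged 19.4 percentage points more than those without (exact permutation p = 0.343, adjusted 0.643). Without the second EY library the differences were 13.3 points for YAP1S127A and 6.69 for E6-E7, and the latter was 6.86 without thinning. The smallest p that 70 labellings allow is 0.0286 before adjustment, which is too large for any of the 6 tests to pass after it. The share of Krt15 cells with a partner depended on depth and is not an absolute rate. Without thinning, Krt17 was in 69.5% and 72.1% of Krt15 cells in N and 72.3% and 66.7% in E. It was in 82.3% and 79.4% in Y and 91.8% and 100% in EY. Krt6a was then in 91.4% to 99.1% and Krt16 in 12.8% to 31.2% across libraries. Thinned to 1000 UMIs, Krt17 was in 21.4% and 20.5% of Krt15 cells in N. Shares given with no depth are those at the equal depth.

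Of the Krt15 cells, 48.1% and 70% also had Krt6a in N, 54.2% and 53.6% in E, 52.7% and 51.1% in Y, and 62.7% and 73.5% in EY, so the second N library fell within the range of EY. The difference by transgene was 3.50 percentage points for YAP1S127A and 5.54 for E6-E7 (exact permutation p = 0.629 and 0.429, adjusted 0.657 and 0.643). Krt16 was the rarest partner, in 5.70% and 6.30% of Krt15 cells in N, 5.38% and 3.50% in E, 2.48% and 1.59% in Y, and 3.92% and 5.59% in EY. The differences were −1.83 and 0.58 percentage points (exact permutation p = 0.171 and 0.657, adjusted 0.514 and 0.657). None of the 6 tests passed the threshold, and after adjustment none could have. Both transgene splits of a partner cannot be the most extreme labelling, so no adjusted value could fall under 0.05. No conclusion on a transgene is drawn from these tests. Immune cells with both Krt15 and a stress keratin made up at most 1.06%. Gated cells with Krt15 and Krt6a made up 13.9% to 49.2%, and those with Krt15 and Krt17 made up 17.8% to 29.7%. Gated cells with Krt15 and Krt16 made up 1.05% to 4.43%, and immune cells with that pair at most 0.176%. Krt15 itself was in 0.0714% to 5.78% of immune cells, which bounds these pairs. They therefore do not measure how often a Krt15 cell gains a partner from free RNA. In the second EY library, 10.1% of immune cells had Krt6a and 42.5% had Krt17.

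**Figure D4:**
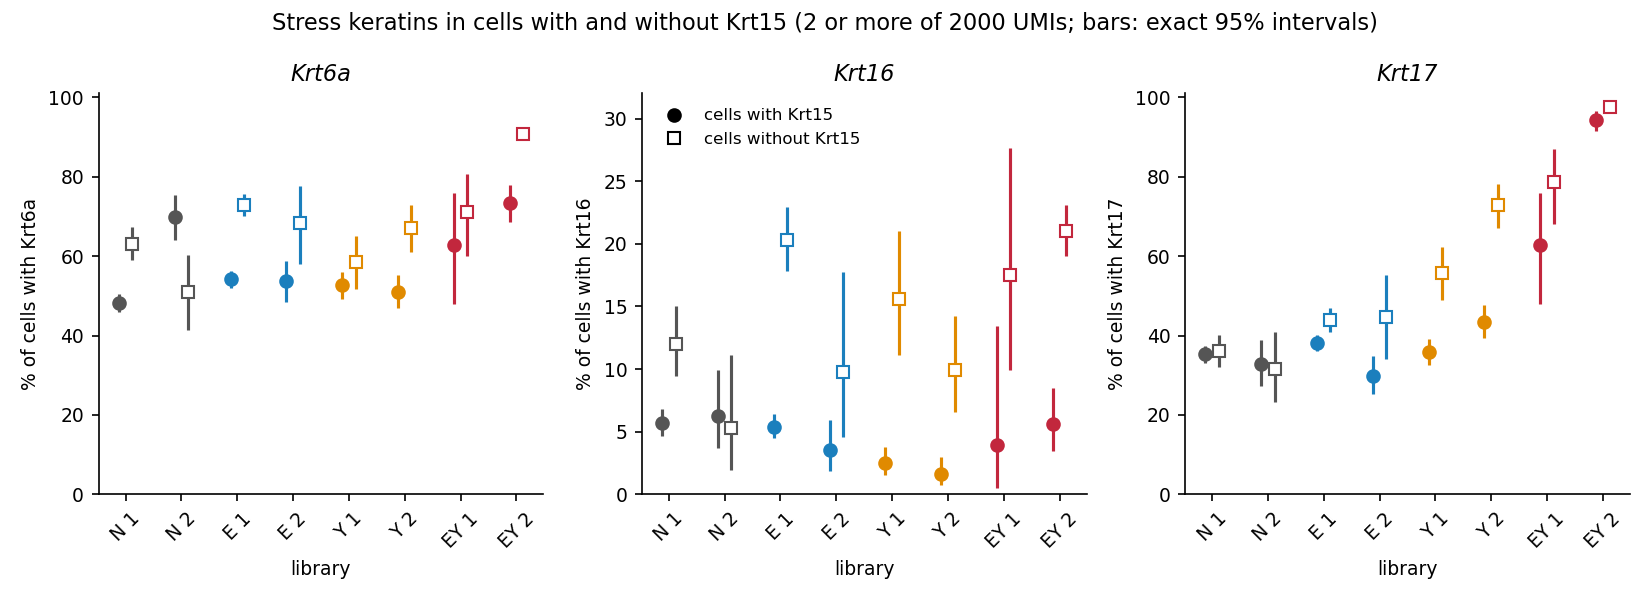
Share of gated cells with Krt6a, Krt16 or Krt17 (vertical axes, %; that of Krt16 is shorter) among cells with Krt15 (filled circles) and without it (open squares) in the 8 libraries, at 2 or more of 2000 UMIs, with exact 95% intervals. Among Krt15 cells, Krt17 was present in 62.7% and 94.4% in EY against 29.9% to 43.5% elsewhere, while Krt16 stayed at or under 6.30% in all 8 libraries.

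Within a library, the stress keratins were nonetheless lower in Krt15 cells than in the rest. Cells with Krt15 had a lower share of Krt17 cells than those without Krt15 in 7 of 8 libraries, and the same held for Krt6a and Krt16, with the second N library as the exception each time. The odds ratio for Krt17 ran from 0.286 in the second Y library to 1.07 in the second N library, and its approximate 95% interval (normal on the log-odds scale) lay below 1 in 6 libraries. For Krt16 it ran from 0.137 to 1.21, with 7 intervals below 1. For Krt6a it ran from 0.282 to 2.25, with 5 intervals below 1 and 1 above, that of the second N library. Levels moved the same way: Krt17 CPM summed over Krt15 cells was lower than over the remaining cells in 8 of 8 libraries, by 0.77 to 1.75 on the log2 scale. In the second EY library it was 5345 CPM in Krt15 cells and 9128 CPM in the rest, both above the values of any Krt15 cells elsewhere. These comparisons are between cells of 1 library, which are not replicates, and are given as descriptions.

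The gated cells were also divided by Krt15 and Krt17 at the same cut, so a cell counted as without a gene may hold some of its RNA. In the first N library, cells with Krt15 and not Krt17 still held 273 CPM of Krt17. Cells with Krt15 and not Krt17 were 50.2% and 47.1% in N, 42.4% and 56.2% in E, 50.7% and 38.6% in Y, and 14.5% and 1.05% in EY. Cells with both were 23.2% to 29.7% in the N, E and Y libraries, 24.4% in the first EY library and 17.8% in the second. Cells with Krt17 and not Krt15 were 8.10% and 9.38% in N, 13.9% and 8.86% in E, 11.7% and 23.1% in Y, and 48.1% and 79.1% in EY. The class with both thus varied least, while EY had fewer Krt15-only and more Krt17-only cells than every other library. The second Y library had the largest Krt17-only class outside EY.

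**Figure D5:**
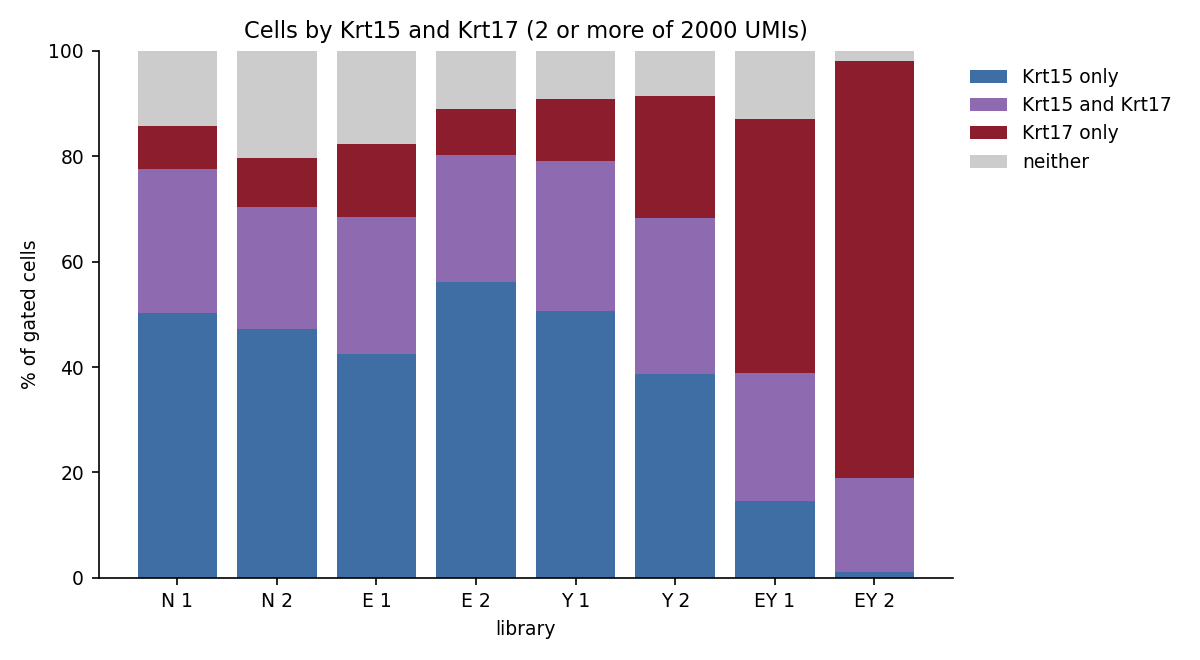
Gated cells of each library (horizontal axis) by presence of Krt15 and Krt17 at 2 or more of 2000 UMIs (vertical axis, % of cells). Krt17-only cells made up 48.1% and 79.1% in EY against 8.10% to 23.1% in the other libraries, and Krt15-only cells 14.5% and 1.05% against 38.6% to 56.2%.

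The other members followed these classes in every genotype. Krt6a, Krt16, Krt6b and Krt14 were each higher in Krt17-only than in Krt15-only cells in 8 of 8 libraries. In the first N library, Krt6a was at 4121 against 1050 CPM, Krt16 at 627 against 102 CPM and Krt14 at 11219 against 7179 CPM. In the second EY library the same pairs were 3741 against 1779 CPM, 667 against 41.6 CPM and 11456 against 6369 CPM. The Krt15-only class held only 19 cells in the first EY library and 20 in the second, so its EY values are imprecise. Cells with both Krt15 and Krt17 had more Krt6a and Krt16 than Krt15-only cells in 8 of 8 libraries. Krt5 did not follow: it was higher in Krt17-only cells in 3 of 8 libraries. Krtdap, a gene of differentiating keratinocytes, was higher in Krt17-only than in Krt15-only cells in 7 of 8 libraries. Sbsn, on the squamous list below, and Sprr1b, on the wound-edge list, were higher there in all 8. In the first N library they were at 325 against 68.5 CPM and at 7.31 against 0.55 CPM. Krt13 and Krt4, the keratins of the suprabasal layers, were higher in Krt17-only cells in only 1 and 2 of 8. Cells with neither gene had more Krt13 and Krt4 than cells with both, in 8 of 8 libraries. Of the 4 classes they had the highest level of the gland gene Wfdc18 in 7 of 8 libraries, with 81031 CPM in the 17 such cells of the first EY library. The second Y library, at 0 CPM, was the exception.

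The number of cells that carried each gene also differed. The fewest cells that together held 50% of a gene's UMIs were 5.60% and 7.29% of the gated cells for Krt17 in N, 4.99% and 6.48% in E, 6.07% and 10.9% in Y, and 11.4% and 26.3% in EY. Krt17 thus came from a small share of cells in N and E and was spread most widely in the second EY library. For Krt15 the figure was 18.1% to 22.5% in the N, E and Y libraries and 7.58% and 5.38% in EY. Krt16 was concentrated everywhere, with 1.08% to 5.12% of cells, and Krt5 was spread evenly, with 19.7% to 32.2%.

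Across cells within a library, at 2000 UMIs each, Spearman's rho between Krt15 and Krt17 was between −0.42 and −0.01 and was below 0 in all 8 libraries. It was most negative in the second Y library and nearest 0 in both N libraries. Krt6a and Krt17 had rho between 0.26 and 0.57, Krt6a and Krt16 between 0.26 and 0.46, and Krt5 and Krt14 between 0.37 and 0.54. The points are cells of 1 library that may share free RNA, so these values are descriptions. Krt6a, Krt16 and Krt17 thus varied together in all 8 libraries, with the highest values in the first EY library for all 3 pairs among them.

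Genes around the keratins were read from fixed lists, in which counts are of genes past the edgeR threshold in EY against N, where 5.13% of all genes were called. Krt13, Krt24, Itgb4 and Trp63 are described although not called and were picked after their values were seen. Of 19 other keratins tested, 0 rose and 2 fell (Krt1 and Krt78, both under 20 CPM), with a median log2 difference of −1.81 against −0.05 over all genes. Krt13 was at 3512 and 1476 CPM in N and 1425 and 1059 CPM in EY (log2 difference −1.01, adjusted p = 0.186). Krt24 was at 108 and 161 CPM in N and 16.5 and 1.22 CPM in EY (−4.48, adjusted p = 0.0555). Of 13 genes of basal adhesion and the basal layer, 0 were called by edgeR (4 at an unadjusted p under 0.05). Itgb4, the hemidesmosomal integrin, was at 146 and 185 CPM in N and 135 and 130 CPM in EY, while Trp63, the transcription factor that maintains basal cells, was at 203 and 320 CPM against 134 and 63.0 CPM (−1.43, adjusted p = 0.0868). Of 13 genes that anchor keratins at desmosomes, 0 were called by edgeR in EY against N (5 at an unadjusted p under 0.05). In the YAP1S127A effect, where 3.4% of all genes were called, 2 of them rose, the plakins Ppl (2.10) and Evpl (0.82).

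Of 16 transcription factors known to act on keratin promoters, 0 rose and 1 fell, a share near that of all genes: Tfap2c (AP-2gamma), from 52.4 and 45.6 CPM in N to 14.3 and 11.8 CPM in EY (−1.94, SE 0.21, edgeR adjusted p = 0.0249). It was at 43.0 and 46.1 CPM in E and 30.2 and 22.6 CPM in Y. Of 15 wound-edge and stress genes, 5 rose and 0 fell, with a median log2 difference of 1.94. S100a8 and S100a9, the calprotectin subunits, had log2 differences of 7.07 and 6.43, and Il24, a cytokine of wounded epidermis, had 6.76. S100a8 was at 950 and 449 CPM in EY and at 1.91 and 9.49 CPM in N. Myeloid cells also make S100a8 and S100a9, which are on the myeloid marker list, and that part was not tested. The other 2, named because they complete the count, were Sprr1b and Ereg. Of 14 squamous differentiation genes, 1 rose and 2 fell. Crct1, a cornified envelope gene, went from 0.738 and 8.24 CPM in N to 275 and 570 CPM in EY and was also at 274 and 1230 CPM in Y. Calml3 went from 231 and 229 CPM to 74.1 and 28.2 CPM (−2.21), and Dsg1a was the other gene that fell. In the YAP1S127A effect, 3 wound-edge genes (Slpi, S100a8 and Sprr1b) and 2 squamous genes (Crct1 and Sbsn) rose, while Calml3, Tfap2c and Krt76 fell. In E against N, Y against N, the E6-E7 effect and the interaction, edgeR called 0 genes of any list (at an unadjusted p under 0.05, 0 to 3, 0 to 5, 1 to 4 and 0 to 8 genes a list).

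The genes most like each member over the 8 libraries, by Pearson's r of log2(CPM + 1) among 5152 genes, were Antxr1 (0.98) and Arid1b (0.98) for Krt15 and Psmd6 (0.996) and Eif4e2 (0.99) for Krt17. Antxr1 was at 38.6 to 62.0 CPM in the N, E and Y libraries and at 26.3 and 9.97 CPM in EY. For Krt16 they were Uxt (0.95) and Icam1 (0.94), the latter at 46.3 to 194 CPM outside EY and 212 and 248 CPM in EY. For Krt6a they were Capns1 (0.96) and Krtcap2 (0.96), for Krt6b Mrpl54 (0.95) and Hist1h2ab (0.94), for Krt5 Pltp (0.95) and Hibadh (0.93), and for Krt14 Fis1 (0.96) and Sdf4 (0.93). Members were left out of the search. With 8 points and 5152 genes compared, values this high are descriptions of the search and carry no test.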

How the data were processed

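Tongue epithelial cells of 8 libraries (10x 3′ chemistry) were aligned and counted by the authors with Cell Ranger 5.0.0 on mm10, per the labels and file headers, and the deposited values are whole UMI counts per gene and cell. These counts carry no further normalization. Of the gene identifiers, 99.6% were found in the GENCODE annotation used for positions.

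Cells were kept with 1000 to 5500 genes, no more than 30000 UMIs and a mitochondrial share up to 7%, the limits the study's methods state, and no doublet caller was run, so doublets may remain. Gated cells had at least 1 Epcam UMI and no Ptprc UMI. Their UMIs were summed per library and tested with edgeR 4.0.16 (quasi-likelihood, TMM, filterByExpr), once with the 4 groups and once with 2 additive transgene terms, with Benjamini-Hochberg adjustment over the 13723 genes and a threshold of 0.05. Alternatives used DESeq2 1.42.0 and limma 3.58.1 (log2 of mean CPM + 1). Co-expression used cells thinned to 2000 UMIs and exact permutation of library labels. The edgeR fits were checked on simulated counts, and the permutation test on constructed values with known answers. The mice of a group are the replicates, and 2 a group give little precision. The members, gene lists and tests were chosen with earlier results of these data known. Named genes were all 7 members, up to 3 called genes a list with the largest change in EY against N and at least 20 CPM in 1 group, the 2 genes most like each member, and those said to be picked later. Genes of cell classes were chosen after values were seen.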

Additional observations from a re-analysis of the deposited data

How the results depend on the processing

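Krt17 was above N in EY under all 20 alternatives and was called under all 12 that kept the 8 libraries. Without 1 library, members called in EY against N numbered 0 to 3 (1 with all), and in the YAP1S127A effect 0 to 1. With all 8, members called in EY against N numbered 5 without cell filters (36.6% of all genes), without upper limits (37.8%) or with limma (13.8%). They numbered 4 without the low-count filter (10.4% of all genes) and 3 with DESeq2 (14.7%). In Y against N they numbered 2 without cell filters and 1 without upper limits (0 with both), where 8.81% and 8.83% of all genes were called. In the YAP1S127A effect they numbered 3 without cell filters (40% of all genes) or upper limits (40.3%). They numbered 1 there with DESeq2 (14.8%), limma (4.57%), no low-count filter (6.89%), no immune UMI (4.18%), the gland limit (6.89%) or basal integrin UMIs (5.77%). In the E6-E7 effect 1 was called with DESeq2 (1.3% of all genes) or no low-count filter (0.75%). Over all genes, EY against N called 704, from 212 (at least 2 Epcam UMIs) to 5611 (no upper limits) with all libraries and 0 to 3109 without 1; the YAP1S127A effect called 467, from 317 to 6047 and 86 to 657.

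Small values changed sign. Krt5 in EY against N was 0.0505 without cell filters and 0.0718 without upper limits, Krt14 ran from −0.0571 to 0.496 without 1 library (below 0 without the second EY library), and Krt17 in E against N was −0.0460 without cell filters, −0.0486 without upper limits and −0.25 to 0.409 without 1 library (below 0 without the first E library). Krt15 in Y against N was −0.44 without cell filters, −0.45 without upper limits and −0.17 to 0.33 without 1 library, and in E against N it was 0.0052 with Dsp, 0.0040 without TMM, 0.0494 with limma and −0.39 to 0.22 without 1 library. In E against N, Krt6b ran from −0.74 to 2.04 and Krt16 from −0.0079 to 1.51 without 1 library. For shares of Krt15 cells, the Krt6a difference for YAP1S127A was −2.30 points at 1000 UMIs, −0.38 at 4000 and −0.99 to 8.01 without 1 library, and that for E6-E7 was −1.19 at 1000 UMIs. The Krt16 difference for YAP1S127A was 0.27 without cell filters, 0.32 with Dsp in place of Epcam, 0.55 at 5 UMIs or more and 1.15 unthinned. For E6-E7 it was −0.44 at 2 Epcam UMIs, −1.38 without immune UMIs, −0.0280 with basal integrin UMIs, −0.87 at 1000 UMIs and −0.23 to 1.34 without 1 library. The Krt17 differences kept their sign under every alternative run but ran from 13.3 to 32.8 points for YAP1S127A and 6.69 to 28.2 for E6-E7 without 1 library. The cause of these changes was not tested. No paired analysis was run. The paper used littermates in balanced groups, and whether libraries of different groups shared a litter or a processing day was not established.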
